A study of Arabidopsis thaliana with 9 samples.

Results

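AGO4-bound transcripts that overlap another AGO4-bound transcript on the opposite strand were examined in *Arabidopsis thaliana*. They were found by position and strand alone. Of the 3940 AGO4-bound transcripts called in the AGO4 RIP-seq (RNA immunoprecipitation followed by sequencing), 695 (17.6%, Wilson 95% interval 16.5 to 18.9%) shared at least 1 bp with a transcript of the other strand. They formed 354 pairs, with 344 transcripts on the plus and 351 on the minus strand. When the list was first limited to transcripts with at least 10 deduplicated reads in Col-0, 188 of 1624 (11.6%) were in pairs. The other 3245 transcripts of the list, which overlap none on the opposite strand, are called single-strand transcripts here.

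The AGO4 RIP-seq used an antibody against AGO4 and compared the *ago4* mutant (*ago4-1*, crossed into the Col-0 background) with the Col-0 wild type, with 1 library of each. The Pol V RIP-seq used an antibody against NRPE1 and compared the *nrpe1* mutant (*nrpd1b-11*) with Col-0, with 2 biological repeats of each. In both assays the tissue was the aerial part of soil-grown seedlings about 2.5 weeks old, kept in long days and fixed with 0.5% formaldehyde, and the strand of the RNA was kept in the library. *ago4* and *nrpe1* lack a working form of the protein that the antibody binds, so they serve as background for the precipitation. AGO4 RIP-seq of *nrpe1*, and Pol V RIP-seq of *ago4* and of *idn2*, were not analysed here.

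In RNA-directed DNA methylation (RdDM), RNA polymerase IV and the RNA-dependent RNA polymerase RDR2 make double-stranded RNA, which DCL3 cuts into small interfering RNAs. AGO4 (ARGONAUTE 4) is loaded with these small RNAs and binds long non-coding RNA that Pol V makes at the target locus. The methyltransferase DRM2 then methylates cytosines, with CHH sites (where H is any base but G) as a typical mark of the pathway. NRPE1 is the largest subunit of Pol V. Transcripts that overlap on opposite strands cover the same DNA, so AGO4-bound RNA of such a pair reads both strands of one stretch.

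On the listed transcripts, *ago4* had 6245 reads and Col-0 had 118313. Of these, 426 reads in *ago4* and 17808 reads in Col-0 fell on transcripts in pairs, which held 15.1% of the listed Col-0 reads. In the Pol V RIP-seq, the listed Pol V transcripts had 1980 to 3049 reads in *nrpe1* and 189141 to 251106 reads in Col-0. Whole-library totals were not used here, so folds between libraries are ratios of the reads as listed. For folds, *ago4* was set to 3 reads wherever it had fewer, which makes such a fold a lower bound that covers counting error only.

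The stretches shared by both strands are shown for 5 pairs, to make visible what the overlap is at the level of sequence. AGO4_Trans2027 with AGO4_Trans2029 and AGO4_Trans3446 with AGO4_Trans3447 belong to the pairs named by rule, and the other 3 were chosen after their values were seen as the most-read one-to-one pair whose shared stretch was 100 to 240 bp long and itself off protein-coding genes: a divergent and a convergent pair with Pol V transcripts on both strands, and a pair with none. Outside the shared stretch, AGO4_Trans2231 overlaps the protein-coding gene AT3G49100 and AGO4_Trans1742 overlaps AT3G09390. AGO4_Trans2027 overlaps the protein-coding gene AT3G29130 and the pseudogene AT3G29120, also outside the stretch it shares with AGO4_Trans2029. That stretch itself lies within AT3G00560, annotated as a miscellaneous RNA. Capitals mark the overlap and lower case the flanking bases, on the plus strand of the RefSeq assembly TAIR10.1, written 5′ to 3′.
AGO4_Trans2027 with AGO4_Trans2029, chr3:11104787-11105063, plus strand: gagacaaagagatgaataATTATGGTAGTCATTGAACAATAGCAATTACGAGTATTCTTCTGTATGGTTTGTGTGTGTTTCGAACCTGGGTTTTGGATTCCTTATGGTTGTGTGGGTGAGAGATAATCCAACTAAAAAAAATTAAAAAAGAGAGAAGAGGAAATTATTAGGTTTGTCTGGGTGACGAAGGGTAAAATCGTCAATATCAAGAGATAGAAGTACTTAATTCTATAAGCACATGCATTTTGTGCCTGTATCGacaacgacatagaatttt
AGO4_Trans3446 with AGO4_Trans3447, chr5:12076158-12076280, plus strand: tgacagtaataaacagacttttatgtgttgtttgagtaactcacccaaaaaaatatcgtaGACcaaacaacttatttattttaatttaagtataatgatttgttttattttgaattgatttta
AGO4_Trans3430 with AGO4_Trans3429, chr5:10795763-10795991, plus strand: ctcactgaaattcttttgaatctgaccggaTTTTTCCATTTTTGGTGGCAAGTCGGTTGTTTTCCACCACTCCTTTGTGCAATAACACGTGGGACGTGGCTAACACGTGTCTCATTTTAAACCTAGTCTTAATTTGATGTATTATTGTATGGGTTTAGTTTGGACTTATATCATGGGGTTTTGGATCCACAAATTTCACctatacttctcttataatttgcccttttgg
AGO4_Trans2231 with AGO4_Trans2232, chr3:18198672-18198832, plus strand: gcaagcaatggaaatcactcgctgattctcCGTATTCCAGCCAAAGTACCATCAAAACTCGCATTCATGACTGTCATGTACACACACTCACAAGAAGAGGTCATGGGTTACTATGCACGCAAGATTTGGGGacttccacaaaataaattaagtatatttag
AGO4_Trans1743 with AGO4_Trans1742, chr3:2888224-2888451, plus strand: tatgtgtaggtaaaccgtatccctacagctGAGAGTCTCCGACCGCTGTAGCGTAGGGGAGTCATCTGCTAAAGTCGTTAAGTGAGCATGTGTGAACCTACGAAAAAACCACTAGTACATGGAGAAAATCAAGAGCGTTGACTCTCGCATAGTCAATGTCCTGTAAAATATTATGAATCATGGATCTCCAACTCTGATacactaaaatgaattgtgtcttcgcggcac
In AGO4_Trans2027 with AGO4_Trans2029, a short minus-strand transcript lies wholly within a long plus-strand one, and the 241 bp they share are 35.3% G+C. They hold 5 CG dinucleotides and, counting both strands, 67 cytosines in a CHH context. AGO4_Trans3446 and AGO4_Trans3447 share only 3 bp at their 3′ ends. AGO4_Trans3430 and AGO4_Trans3429 begin inside each other and share 169 bp, with 4 CG dinucleotides and 55 CHH cytosines. AGO4_Trans2231 and AGO4_Trans2232 end inside each other over 101 bp, with 3 CG dinucleotides and 36 CHH cytosines. AGO4_Trans1743 lies within AGO4_Trans1742, and no Pol V transcript overlaps this pair. Its 168 bp hold 7 CG dinucleotides and 48 CHH cytosines.

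In all of these pairs but the first, each strand had at most 3 reads in *ago4*, against 7 to 53 in Col-0. AGO4_Trans3430, near *BZO2H3*, which encodes a bZIP transcription factor, had 0 reads in *ago4*, against 18 in Col-0, and AGO4_Trans3429 had 0 reads in *ago4*, against 53 in Col-0. Their Pol V transcripts, PVTrans3926 and PVTrans3925, had at most 1 read in an *nrpe1* library, and in Col-0 140 and 166 reads (PVTrans3926) and 257 and 317 reads (PVTrans3925). AGO4_Trans2231 and AGO4_Trans2232 also had 0 reads in *ago4*, against 12 and 17 in Col-0. In the pair without Pol V, AGO4_Trans1742 overlaps the metallothionein gene *MT2A*, while AGO4_Trans1743 lies 984 bp downstream of it. AGO4_Trans1743 and AGO4_Trans1742 had 0 and 3 reads in *ago4*, against 12 and 31 in Col-0. In 4 of the 5 pairs the minus strand had more Col-0 reads, and the exception was AGO4_Trans2027.

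Most transcripts in pairs had a single partner. Of the 695, 682 had 1 partner and 13 had 2, and 330 of the 354 pairs were one-to-one. Linked pairs formed 341 clusters, of which 330 held 2 transcripts, 9 held 3 and 2 held 4. Both clusters of 4, described here after their values were seen, lie in chromosome arms outside annotated genes. On chromosome 2, between 1110815 and 1113098, AGO4_Trans1010, AGO4_Trans1011, AGO4_Trans1012 and AGO4_Trans1013 alternate between minus and plus strand in a chain, and had 12, 25, 22 and 13 reads in Col-0. On chromosome 5, between 595350 and 596942, AGO4_Trans3054 to AGO4_Trans3057 had 23, 11, 34 and 18 reads in Col-0. None of these 8 transcripts had a read in *ago4*, and each overlapped a Pol V transcript of its own strand.

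The geometry of a pair says which ends lie in the overlap. In a divergent pair both 5′ ends lie inside the partner, in a convergent pair both 3′ ends do, and in a nested pair one transcript lies within the other or shares an end with it. Nested pairs were the most frequent with 172 (48.6%, Wilson 95% interval 43.4 to 53.8%), followed by 129 divergent pairs (36.4%, 31.6 to 41.6%) and 53 convergent pairs (15.0%, 11.6 to 19.1%). Among the 182 pairs that were not nested, 70.9% (63.9 to 77.0%) were divergent. The 1186 opposite-strand pairs of the Pol V list gave 69.7% (66.1 to 73.0%), an interval that overlaps that of the AGO4 pairs. In 43 nested pairs (25%) the transcripts shared an end, and the inner transcript was on the plus strand in 87 of 172.

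The overlaps were long relative to the transcripts. The median overlap was 370.5 bp (order-statistic 95% interval 337 to 400), against 521 bp (506 to 539) in the Pol V pairs. It covered at least 50% of the shorter transcript in 319 pairs (90.1%) and was under 100 bp in 15. By geometry, the median overlap was 278 bp in divergent, 385 bp in convergent and 419.5 bp in nested pairs. The longest, 1813 bp, joined AGO4_Trans1208 and AGO4_Trans1207 on chromosome 2, and the shortest was the 3 bp of AGO4_Trans3446 and AGO4_Trans3447. Just inside the 1 bp rule were also AGO4_Trans1556 with AGO4_Trans1555 (7 bp) and AGO4_Trans311 with AGO4_Trans310 (9 bp). Just outside it were AGO4_Trans1913 and AGO4_Trans1912, 12 bp apart, and 2 further pairs of neighbours 17 bp apart. In all, 18 opposite-strand neighbours lay at most 200 bp apart without overlap.

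**Figure D1:**
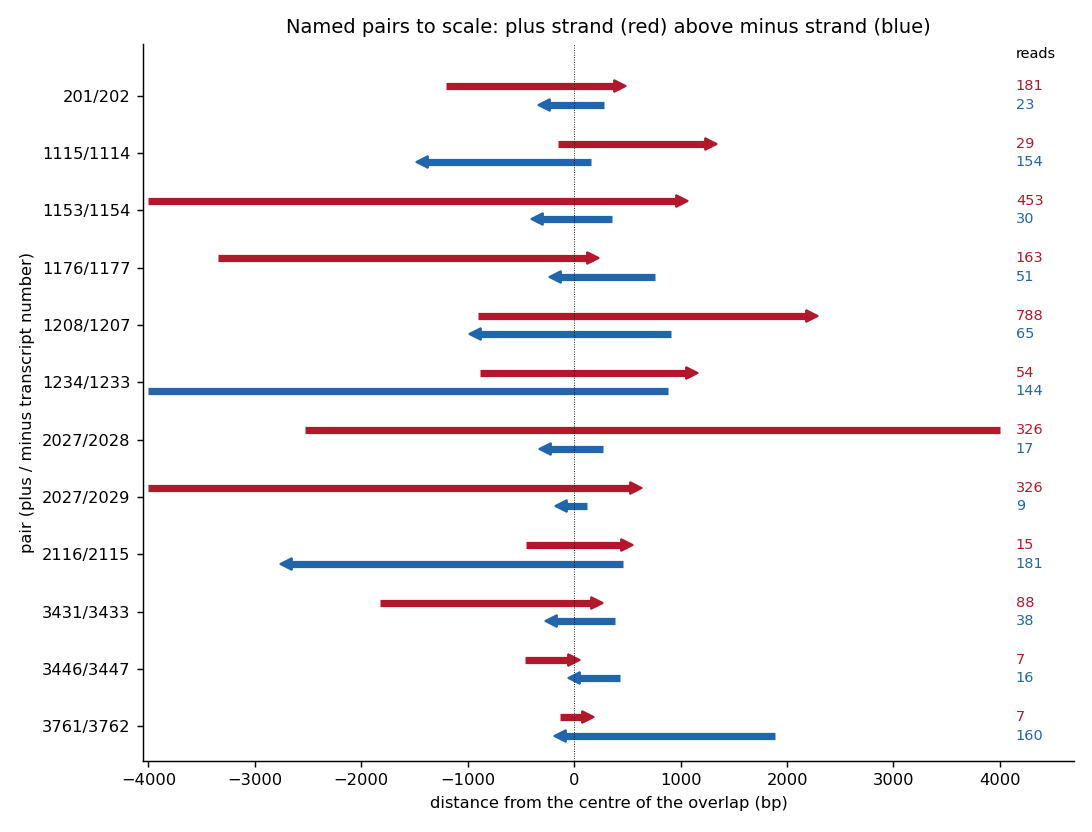
The 12 named pairs drawn to scale, with the distance from the centre of the overlap in bp on the horizontal axis, the plus-strand transcript (red) above the minus-strand transcript (blue), arrowheads at 3′ ends and Col-0 AGO4 reads at the right. Transcripts longer than the plot are cut at its edge without an arrowhead, and the overlaps run between 3 bp and 1813 bp.

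Where a transcript begins relative to the end of its partner was measured for both strands. A negative distance means that it begins before the partner ends. The minus-strand 5′ end lay at a median of -48 bp (order-statistic 95% interval -70 to -28) from the plus-strand 3′ end, and the plus-strand 5′ end at -31 bp (-63 to -11) from the minus-strand 3′ end. The distances were negative in 209 pairs (59.0%) and in 205 pairs (57.9%), and at most 100 bp in size in 136 and 135 pairs. In the Pol V pairs the medians were -51 bp (-61 to -38) and -38 bp (-47 to -28), so the intervals of the AGO4 and Pol V pairs overlap for both ends. Many AGO4 pairs overlap Pol V pairs at the same loci, so these sets of distances do not come from separate places in the genome. Without nested pairs the medians for AGO4 were -107 bp and -102.5 bp.

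**Figure D2:**
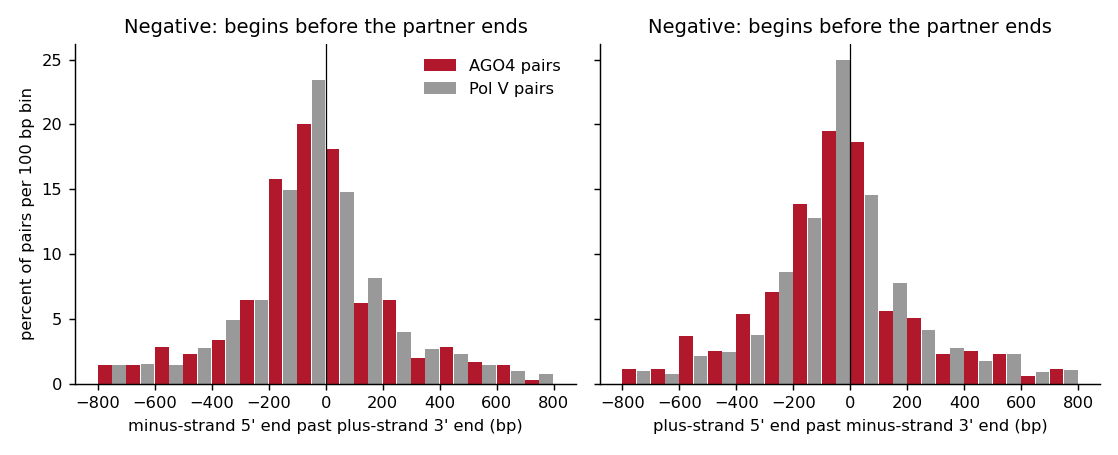
Distance in bp from the 3′ end of one transcript to the 5′ end of its partner (left, minus-strand 5′ end; right, plus-strand 5′ end), as the percent of pairs in each 100 bp bin, for 354 AGO4 pairs (red) and 1186 Pol V pairs (grey). Distances past the ends of the axis are not drawn, and the AGO4 medians lie at -48 bp and -31 bp, left of 0.

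Reads in Col-0 were balanced between the strands over the whole set and in most single pairs. The median was 17 reads on the plus strand (middle 50% from 12 to 27) and 17 on the minus strand (12 to 26.75). The plus strand had more reads in 171 pairs, the minus strand in 169, and 14 pairs had equal reads. Reads on both strands were within 2-fold in 241 pairs (68.1%, Wilson 95% interval 63.1 to 72.7%), within 4-fold in 90.7% and within 10-fold in 97.5%. The strand with more reads held a median of 62.0% of the reads of a pair. With counts this low, part of the spread is counting error, and 1 library gives no replicate check on a single pair. Both transcripts of a pair also had to pass a read minimum to be listed. Loci with too few reads on 1 strand are thus left out, so the balance is in part set in advance.

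Across pairs, the reads on one strand said little about the reads on the other. Log2 Col-0 reads of the plus and minus strand gave a Pearson r of 0.16 (Spearman rho 0.19) over 354 pairs, and of 0.22 (rho 0.23) over the 330 one-to-one pairs. The strands share a library and a locus, and a transcript had to pass a read minimum to be listed, so this is a description only. The share within 2-fold was 73.6% in divergent, 75.5% in convergent and 61.6% in nested pairs. In nested pairs the outer transcript was longer, with a median of 771.5 bp against 419.5 bp for the inner one, and had more reads in 124 of 172 (72.1%). Per length the order turned: the inner transcript had more reads per 100 bp in 106 of 172 (61.6%), with a median of 3.49 reads per 100 bp against 2.89 for the outer one. The inner transcript is the shorter by definition and each had to pass a read minimum, so both orders are in part set in advance. Counted per 100 bp, 76.6% of all pairs were within 2-fold.

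**Figure D3:**
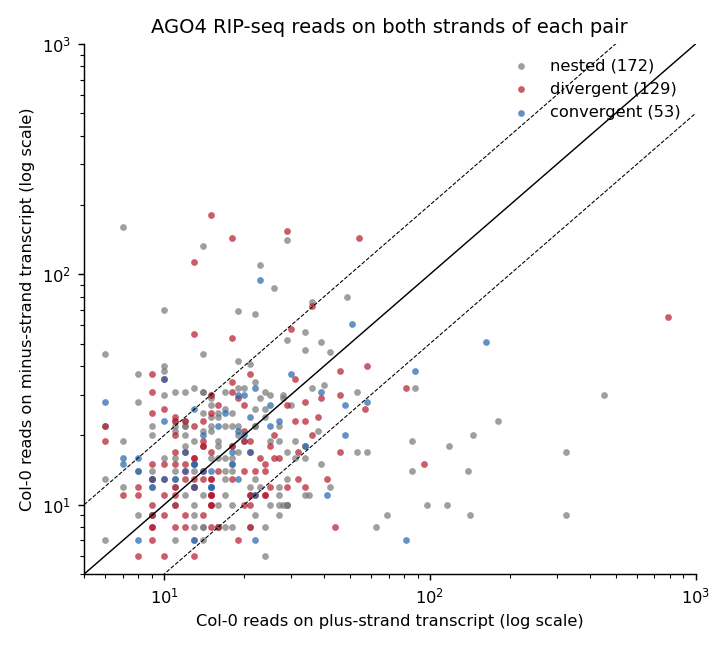
Col-0 AGO4 reads on the plus-strand (horizontal) and minus-strand (vertical) transcript of each of the 354 pairs, both on log axes, coloured by geometry. The solid line marks equal reads and the dashed lines a 2-fold difference, between which 241 pairs lie.

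In each of the 6 pairs with the most reads, the plus strand had more, by 3.2-fold to 36.2-fold. The pairs of AGO4_Trans2027 with AGO4_Trans2028 and with AGO4_Trans2029 are both among them, so its 326 Col-0 reads count in each. Over all 354 pairs the plus strand had more reads in 171 and the minus strand in 169. AGO4_Trans1208 on chromosome 2, from 6507019 to 6510161, had 5 reads in *ago4*, against 788 in Col-0, 157.6-fold lower in *ago4*. Its divergent partner AGO4_Trans1207 had 2 reads in *ago4*, against 65 in Col-0, at least 21.7-fold lower in *ago4*. In Col-0 the plus strand thus had 12.1 times the reads of the minus strand. Both overlap *RLP18*, annotated as a transcribed pseudogene of a receptor-like protein. AGO4_Trans1153, the longest transcript at 8858 bp, had 12 reads in *ago4*, against 453 in Col-0, and overlaps a pseudogene, 2 lncRNA genes and the microRNA gene *MIR8168*. Its inner partner AGO4_Trans1154 had 0 reads in *ago4*, against 30 in Col-0.

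AGO4_Trans2027 on chromosome 3 spans 8635 bp and carries 2 short minus-strand transcripts within it. It had 24 reads in *ago4*, against 326 in Col-0, while AGO4_Trans2028 had 0 in *ago4*, against 17 in Col-0, and AGO4_Trans2029 had 0 in *ago4*, against 9 in Col-0. These were the pairs most biased to the plus strand, with 19.2-fold and 36.2-fold more Col-0 reads on it. The most minus-biased were AGO4_Trans3761 with AGO4_Trans3762 (7 against 160 reads in Col-0, both with 0 in *ago4*) and AGO4_Trans2116 with AGO4_Trans2115 (15 against 181 reads in Col-0). AGO4_Trans3762 overlaps the microRNA gene *MIR4245* and the protein-coding gene AT5G52070, both annotated on the other strand. AGO4_Trans2116 lies 855 bp downstream of *LTPG2*, which encodes a lipid transfer protein. AGO4_Trans2116 had 0 reads in *ago4* and AGO4_Trans2115 had 23.

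The convergent pair with the most reads was AGO4_Trans1176 with AGO4_Trans1177, on pseudogenes of chromosome 2, where AGO4_Trans1176 also overlaps the protein-coding gene AT2G13965. AGO4_Trans1176 had 0 reads in *ago4*, against 163 in Col-0, and AGO4_Trans1177 had 5 in *ago4*, against 51 in Col-0. AGO4_Trans3431 with AGO4_Trans3433, the next, had 4 and 0 reads in *ago4*, against 88 and 38 in Col-0. Among divergent pairs, AGO4_Trans1234 with AGO4_Trans1233 came second, with 0 reads on either strand in *ago4*, against 54 and 144 in Col-0. All 4 transcripts of these last pairs overlap annotated pseudogenes.

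For most transcripts in pairs, *ago4* had no read at all. With 1 library per genotype there is no test between genotypes. The authors listed only transcripts with 6-fold enrichment in Col-0 over *ago4*, so the values describe the list. No *ago4* read was found on 586 of the 695 (84.3%, Wilson 95% interval 81.4 to 86.8%), against 72.7% over the whole list and 2277 of 3245 single-strand transcripts (70.2%, 68.6 to 71.7%). Per 100 reads in Col-0, *ago4* had 2.39 reads on transcripts in pairs and 5.79 on single-strand transcripts. Overlap with a Pol V transcript moves with both values. Among transcripts with a Pol V transcript of their own strand, 499 of 578 in pairs (86.3%, 83.3 to 88.9%) and 941 of 1051 single-strand ones (89.5%, 87.5 to 91.2%) had no *ago4* read, which is the opposite order with overlapping intervals. Those in pairs had 245 reads in *ago4*, against 13986 in Col-0, and the single-strand ones 337 in *ago4*, against 19539 in Col-0. Most *ago4* reads of the list, 5447 against 79390 in Col-0, lay on single-strand transcripts with no Pol V transcript on either strand. The share without an *ago4* read also fell with depth. With 5 to 6 deduplicated Col-0 reads it was 100% in pairs and on a single strand, and over 50 reads it was 30% and 1.71%. With *ago4* taken as at least 3 reads, 334 of the 695 (48.1%) were at least 6-fold lower in *ago4*, against 44.4% of the whole list, so by this rule the share is near that of the list. On deduplicated reads the order turned, with 14.1% of the 695 and 16.1% of the list at least 6-fold lower. With a floor of 1 read the shares were 100% and 99.5%. The list was called at 6-fold, so the shares with a floor of 3 reads depend on how many Col-0 reads a transcript had. The median bound was at least 5.67-fold lower for transcripts in pairs and at least 5.33-fold for single-strand transcripts. In whole aerial tissue, fewer cells with a transcript and less of it per cell cannot be told apart.

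Read by pair, 256 (72.3%) had no *ago4* read on either strand, 81 had *ago4* reads on 1 strand and 17 on both. The most *ago4* reads of any member were the 26 of AGO4_Trans201, against 181 in Col-0. This transcript overlaps the protein-coding genes AT1G18720 and *PnsB4*, which encodes a subunit of the chloroplast NDH complex, and its partner AGO4_Trans202 had 3 reads in *ago4*, against 23 in Col-0. AGO4_Trans2027 and AGO4_Trans2115 followed with 24 and 23 reads in *ago4*. Transcripts in pairs had nearly the same reads as single-strand ones in Col-0, with medians of 17 and 16, and were slightly longer, with medians of 557 bp (530 to 590) and 500 bp (492 to 516).

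Whether AGO4-bound RNA on both strands goes with Pol V on both strands was examined next, using the Pol V list, which comes from other libraries. A Pol V transcript of the same strand overlapped 578 of the 695 transcripts in pairs (83.2%, Wilson 95% interval 80.2 to 85.8%), against 1051 of 3245 single-strand transcripts (32.4%, 30.8 to 34.0%). When either strand counted, the shares were 90.1% and 35.4%. In 269 of the 354 pairs (76.0%, 71.3 to 80.1%) both transcripts had their own Pol V transcript, in 51 (14.4%) only 1 had, and in 34 (9.6%) neither strand of the pair had one. Both strands were covered by Pol V in 73.6% of divergent, 69.8% of convergent and 79.7% of nested pairs.

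The higher share with Pol V in pairs was found at each depth of AGO4 reads. With 5 to 6 deduplicated reads in Col-0 it was 73.0% in pairs and 33.5% for single-strand transcripts, with 9 to 12 reads 92.1% and 43.1%, and with 21 to 50 reads 89.1% and 16.04%. Over 50 reads it was found for 8 of 20 transcripts in pairs and 8 of 117 single-strand ones (6.84%). These differences were not tested, and their intervals do not overlap in any of the 6 classes. Protein-coding genes move with the result: 148 of 695 transcripts in pairs (21.3%) overlapped one, against 1853 of 3245 single-strand transcripts (57.1%). Among transcripts that overlap no protein-coding gene, the shares with Pol V were 87.6% (84.5 to 90.1%) and 56.2% (53.6 to 58.8%). On the chromosome arms they were 83.2% and 28.6%, and in pericentromeric windows 83.0% and 61.7%.

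**Figure D4:**
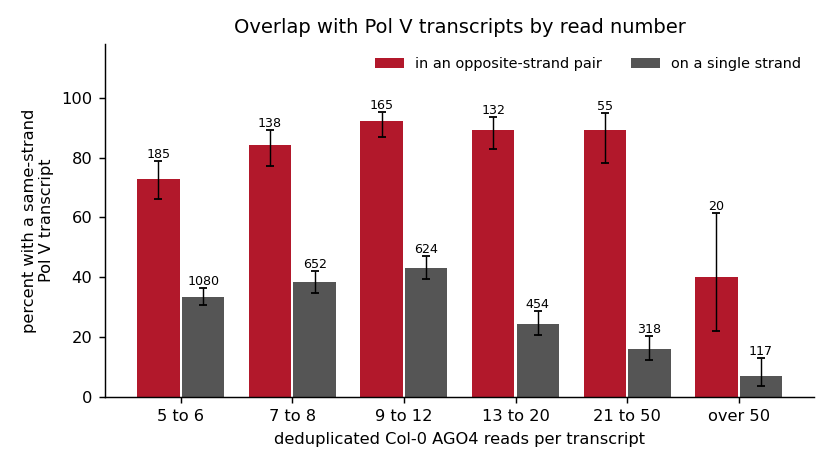
Percent of AGO4-bound transcripts with a same-strand Pol V transcript, in 6 classes of deduplicated Col-0 AGO4 reads, for transcripts in opposite-strand pairs (red) and on a single strand (grey). Bars show the share, error bars Wilson 95% intervals and numbers the transcripts per class; in each class the red bar is higher, with 73.0% and 33.5% in the lowest.

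Relative to Col-0, pairs without any Pol V transcript had more reads in *ago4*. The 34 such pairs had 151 reads in *ago4*, against 2536 in Col-0, and 16 of them (47.1%, 31.5 to 63.3%) had no *ago4* read on either strand. The 269 pairs with Pol V on both strands had 271 reads in *ago4*, against 13875 in Col-0, and 203 (75.5%, 70.0 to 80.2%) had no *ago4* read. In these sums a transcript in several pairs is counted in each of them. The median pair had 44 reads in Col-0 (29 to 78) without Pol V and 39 (36 to 42) with Pol V on both strands. As the share without an *ago4* read falls with depth, depth may play a part, which was not tested. The most-read pairs without Pol V were AGO4_Trans1176 with AGO4_Trans1177 and AGO4_Trans201 with AGO4_Trans202, described above, and AGO4_Trans1115 with AGO4_Trans1114. The last had 0 reads on either strand in *ago4*, against 29 and 154 in Col-0, and overlaps *SADHU1-1*, a pseudogene of the Sadhu family of retroelements. Of the 69 transcripts in pairs without Pol V on either strand, 39 (56.5%) overlapped a protein-coding gene, against 99 of 578 (17.1%) of those with Pol V on their own strand.

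Seen from the Pol V list, 572 Pol V transcripts overlapped transcripts in pairs on the same strand. Of these, 520 (90.9%) were themselves in opposite-strand Pol V pairs. That share was 498 of 1034 (48.2%) for Pol V transcripts on single-strand AGO4-bound transcripts and 1299 of 2896 (44.85%) for those without AGO4. Medians in Col-0 for the 572 were 69 and 51.5 reads in repeats 1 and 2. They were 56 and 41 for the 1034 on single-strand AGO4-bound transcripts and 38 and 28 for the 2896 without AGO4. Of the 1186 Pol V pairs, 270 (22.8%) had AGO4-bound transcripts on both strands, 511 (43.1%) on 1 strand and 405 (34.1%) on neither. Of the 572, 433 (75.7%) had no read in either *nrpe1* library. The share was 785 of 1034 (75.9%) on single-strand AGO4-bound transcripts and 2489 of 2896 (85.95%) without AGO4, so it was no higher under pairs.

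Reads on these Pol V transcripts in *nrpe1* and Col-0 went through the quasi-likelihood test of edgeR over the whole Pol V list, with 2 libraries per group. The list was selected on this contrast, so its calls are a description. After Benjamini-Hochberg adjustment, 570 of 572 were lower in *nrpe1*, against 99.9% of the list. Both exceptions lie under named pairs with a strong bias to one strand. PVTrans1525, under AGO4_Trans1208, had 229 and 34 reads in *nrpe1*, against 2681 and 764 in Col-0, with a log2 fold change of -3.71 and an adjusted p of 0.062 in edgeR. PVTrans2554, under AGO4_Trans2115, had 150 and 256 reads in *nrpe1*, against 1000 and 1562 in Col-0, with a log2 fold change of -2.66 and an adjusted p of 0.093 in edgeR. Groups did not overlap for either transcript, but the list was selected for a minimum fold in each repeat. With TMM normalization 0 of the 572 were called, and 453 had an unadjusted p under 0.05. The count was also 0 when either Col-0 library was left out, where 160 (without repeat 1) and 187 (without repeat 2) had an unadjusted p under 0.05.

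In the 269 pairs with Pol V on both strands, the strand with more AGO4 reads tended to have more Pol V reads when raw reads were counted. Among untied pairs this held in 174 of 255 (68.2%, Wilson 95% interval 62.3 to 73.6%) for Pol V repeat 1 and in 162 of 257 (63.0%, 57.0 to 68.7%) for repeat 2. Both Pol V repeats had the same strand higher in 180 of 262 (68.7%, 62.9 to 74.0%), and the 3 intervals overlap. Where AGO4 reads were over 2-fold apart, 65 of 82 (79.3%) and 65 of 84 (77.4%) pairs had the same strand higher. The log2 ratios of plus to minus reads in AGO4 and Pol V gave a Pearson r of 0.60 (Spearman rho 0.52) for repeat 1 and of 0.46 (rho 0.38) for repeat 2 over the 269 pairs. Counted per 100 bp in both assays, the same strand was higher in 163 of 269 pairs (60.6%) for repeat 1. For repeat 2 the same strand was higher in 141 of 269 pairs (52.4%), close to an even split. The part of transcript length in the tendency of raw reads was not tested.

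**Figure D5:**
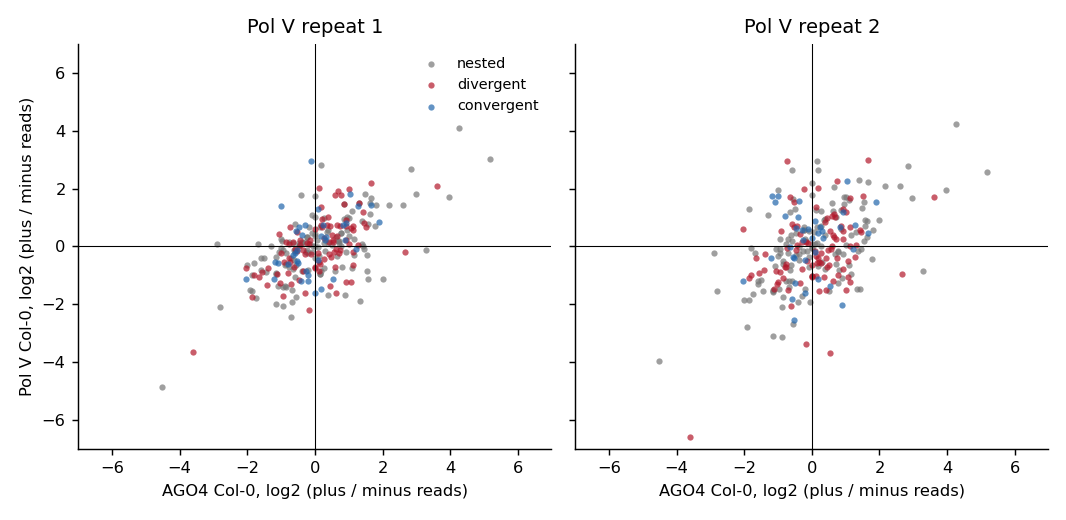
Log2 ratio of plus to minus Col-0 reads in the AGO4 RIP-seq (horizontal) and in each repeat of the Pol V RIP-seq (vertical) for 269 pairs with a Pol V transcript on both strands, coloured by geometry. Points at the lower left and upper right have the same strand higher in both assays, 174 of 255 untied pairs for repeat 1 and 162 of 257 for repeat 2.

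The ends of the transcripts often differed between the assays. In 268 of the 269 pairs the Pol V transcripts of both strands also overlapped each other. Of 260 pairs with a single Pol V transcript on each strand, 116 (44.6%) fell in the same geometry class in both lists. Among 92 divergent AGO4 pairs, 44 were divergent, 37 nested and 11 convergent in the Pol V list. Compared one-to-one with their Pol V transcripts, 547 transcripts in pairs began a median of 43 bp (31 to 57) downstream of the Pol V 5′ end and ended 47 bp (30 to 57) before its 3′ end, and 389 (71.1%) were shorter. The values were 31 bp, 65 bp and 72.7% for 1011 single-strand transcripts. The 5′ ends lay within 100 bp of each other for 46.8% of transcripts in pairs and 52.7% of single-strand ones. For the 3′ ends these shares were 49.0% and 45.8%. AGO4 reads were fewer than Pol V reads, which moves with how far a called transcript extends. Its part in the difference between ends was not tested. The paper describes the ends in both lists as similar, using a minimum overlap that was not applied here.

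Pairs were found on all 5 chromosomes, most of all on chromosome 2. Chromosomes 1 to 5 carried 134, 180, 139, 84 and 158 of the 695 transcripts, or 4.40, 9.14, 5.93, 4.52 and 5.86 per Mb. On chromosome 2, 25.7% (22.6 to 29.0%) of AGO4-bound transcripts were in pairs, against 13.8 to 18.2% on the others. The 500 kb window with the most held 16, on chromosome 2 between 1.5 and 2 Mb, and 80 of 240 windows held none. Pericentromeric windows, those where protein-coding genes cover less than 0.5 times the median of their chromosome, held 141 of the transcripts in pairs (20.3%, 17.5 to 23.4%), against 368 single-strand transcripts (11.3%, 10.3 to 12.5%). Among those with a Pol V transcript of their own strand, the shares were 20.2% (117 of 578, 17.2 to 23.7%) in pairs and 21.6% (227 of 1051, 19.2 to 24.2%) on a single strand, so the higher share was not particular to pairs. With a limit of 0.33 times the median, the shares over all transcripts were 12.7% and 6.04%. Of the 72 pairs in pericentromeric windows 48.6% were nested, 30.6% divergent and 20.8% (13.1 to 31.6%) convergent, against 48.6%, 37.9% and 13.5% (9.98 to 17.95%) of the 282 pairs on the arms. The intervals overlap for each class.

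Most pairs lay off protein-coding genes. In 255 of 354 pairs (72.0%) neither transcript overlapped one, in 49 only 1 did and in 50 both did. By transcript, 21.3% in pairs and 57.1% of single-strand transcripts overlapped one. Among those with a Pol V transcript of their own strand the shares were closer. They were 99 of 578 (17.1%, 14.3 to 20.4%) in pairs and 269 of 1051 (25.6%, 23.05 to 28.3%) on a single strand. The paper describes calling transcripts from reads outside annotated genes, so the annotation of the list may in part be set by the calling. Even so, 2001 of the 3940 listed transcripts (50.8%) overlapped a protein-coding gene of the RefSeq annotation used here. The source of this difference was not tested. No annotated gene or pseudogene was overlapped by 387 of 695 transcripts in pairs (55.7%), against 33.3% of single-strand transcripts, and pseudogenes were overlapped by 122 (17.6%), against 6.84%. Long non-coding RNA genes were overlapped by 58 (8.3%), against 5.67%. The 1 kb upstream of a protein-coding gene was overlapped by 343 (49.4%, 45.7 to 53.1%), against 43.6% (41.9 to 45.3%). Those off genes lay a median of 707 bp from the nearest protein-coding gene, against 555 bp.

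In base composition, transcripts in pairs were close to single-strand transcripts. The median G+C content was 34.6% (34.2 to 34.95%), against 35.2% (35.05 to 35.5%), and CG dinucleotides numbered 2.31 and 2.27 per 100 bp. Counted on both strands, CHH cytosines numbered 25.6 (25.3 to 26.0) per 100 bp in pairs and 25.9 (25.7 to 26.0) in single-strand transcripts, and CHG cytosines 4.06 (3.94 to 4.22) and 4.38 (4.29 to 4.46). The overlaps themselves had a median G+C content of 35.2% and 26.0 CHH cytosines per 100 bp. Repeated sequence was rare in both: at least 90% of the 50-base windows occurred once in the nuclear genome for 624 of 695 transcripts in pairs (89.8%) and for 93.7% of single-strand transcripts. Among the transcripts in pairs that pass this limit, 82.5% had a Pol V transcript on their strand.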

How the data were processed

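The authors mapped paired reads to TAIR10 with SOAPsplice, placed reads with several matches once, and called transcripts from unique reads outside annotated genes, joining reads up to 200 bp apart. AGO4-bound transcripts had to pass a read minimum in Col-0 and 6-fold enrichment in Col-0 over *ago4*, without a statistical test. Pol V transcripts had to pass a read minimum in Col-0 and a minimum fold in Col-0 over *nrpe1*, also in each repeat. They also had to pass a negative binomial test. Both lists were thus selected on the same contrasts as the folds and calls given here. The deposited lists hold the authors' raw read counts per transcript and library, without normalization, and for AGO4 also counts of deduplicated reads. Authors' p-values and q-values in the Pol V list were not used, and 0 columns of values per library were left unused.

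Starts and ends are printed as deposited. Length equals end minus start, so starts were taken to count from 0, and sequences begin 1 base later; the files leave 1 base of doubt in starts. Genes and sequence came from the RefSeq assembly TAIR10.1, whose nuclear chromosomes are those of TAIR10. Transposons were not analysed here. Members and lists were chosen with earlier results of these data known. Pairs were named by rule: the most-read of all, of each geometry, with and without Pol V, the longest and shortest overlap, the most partners, the most *ago4* reads, and the most biased to a strand among those with at least 20 reads. Shares have Wilson and medians order-statistic 95% intervals, which cover counting only, and transcripts are not independent replicates. AGO4 libraries were not replicated. Pol V counts were tested in edgeR 4.0.16 (quasi-likelihood, equal library sizes, Benjamini-Hochberg over 4502 transcripts, threshold 0.05), with DESeq2 1.42.0 as an alternative, in R 4.3.3. Other steps used Python 3.11.15. Scripts were tested on simulated data. Alternatives changed the overlap rule, reads, read filter, floor, windows, normalization, tool and libraries.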

Additional observations from a re-analysis of the deposited data

How the results depend on the processing

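Of 44 alternatives, 22 stayed within the interval of the value or within 1.5 times of the count and 22 did not. The share of AGO4-bound transcripts in pairs was 17.6%, and became 16.04% with an overlap of at least 50% of the shorter transcript and 11.6% among transcripts with at least 10 deduplicated Col-0 reads. The end distances became -107 and -102.5 bp without nested pairs. Pairs within 2-fold became 74.9% on deduplicated reads and 76.6% per 100 bp. Transcripts at least 6-fold lower in *ago4* were 48.1%, against 44.4% of the list, and became 14.1% on deduplicated reads, against 16.1% of the list, an opposite order, and 100% with a floor of 1 read, against 99.5% of the list. The share with Pol V in pairs became 78.6% for an overlap of at least 50%, 90.1% on either strand, 89.4% with at least 10 deduplicated reads and, chosen after seeing the data, 87.6% off protein-coding genes, while single-strand transcripts stood at 30.1, 35.4, 31.8 and 56.2%. The share of pairs with the same strand higher in both assays became 60.6% (repeat 1) and 52.4% (repeat 2) per 100 bp, and 76.5% and 71.2% in pairs at least 1.5-fold apart. The pericentromeric share became 12.7% at a limit of 0.33, against 6.04% of single-strand transcripts, and 26.1% with at least 10 deduplicated reads, against 10.7%, while among transcripts with same-strand Pol V it was 20.2% in pairs and 21.6% on a single strand. The median G+C content was 35.2% in the overlaps alone. A limit on repeated sequence, chosen after seeing the data, kept the values it was tried on within their intervals.

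Of the 572 Pol V transcripts on transcripts in pairs, 570 were called lower in *nrpe1* by edgeR. With TMM normalization 0 were called, and 453 had an unadjusted p under 0.05. DESeq2 with size factors of 1 called 572. Leaving out 1 library at a time gave 0 to 572 calls, with 0 without either Col-0 library. In such a fit the lone library is assumed to vary like the other group. With the replicate block, edgeR called 531 of 572. The repeat numbers share a correlation of deviations of 0.11 over 4502 transcripts, and with 2 pairs this does not show that they pair the libraries.

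Depth limits single pairs most. The median transcript in a pair had 17 reads in 1 Col-0 library, and a floor of 3 reads caps the fold that can be shown.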
